A study of Homo sapiens with 6 samples.

Results

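The arms of chromosomes 16, 17 and 22, which rank among the gene-rich human chromosomes, held 785 of the 50558 deposited peaks of H3K9me3, histone H3 carrying 3 methyl groups on lysine 9. A peak belonged to the arms when its midpoint lay more than 1 Mb from the chromosome ends and outside windows around the centromeres and 1 further window. These windows span 3.0 to 3.5 Mb and 31.5 to 47.0 Mb on chromosome 16, 21.5 to 27.5 Mb on chromosome 17, and 0 to 17 Mb on chromosome 22, in GRCh38. ChIP-seq, the sequencing of DNA pulled down with an antibody to the mark, was done on BJ, an established fibroblast line from human skin. The 3 cell lines carried PURPL guide 1, PURPL guide 2 or a control guide, all by CRISPR interference, in which a guide RNA recruits a repressor to a gene. PURPL encodes a long non-coding RNA. Each cell line gave 1 H3K9me3 library, the source of 1 peak list, and 1 input library. The labels name no repressor, clone or time point, and the fibroblast identity cannot be checked from peaks of a repressive mark.

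The arms held 191 peaks with PURPL guide 1, 100 with PURPL guide 2 and 494 with the control guide. These are 1.36%, 0.853% and 2.18% of the 14715, 12190 and 23653 peaks of their lists. The read depth behind each list is unknown, and a shallower library yields fewer peaks. With 1 library per cell line no difference below has a replicate check, and the 95% Wilson intervals cover counting error only. Both PURPL lists are set against the same control library.

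H3K9me3 marks compacted, silent chromatin. It is written by enzymes that include SETDB1 and the SUV39H methyltransferases and is read by HP1 proteins. On chromosome arms it gathers at repeats and over clusters of zinc finger genes, many of which encode KRAB zinc finger proteins. These proteins bind mostly to transposable elements and recruit TRIM28 and SETDB1, and their own genes carry the mark mainly over the exons that encode the finger array.

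No RefSeq promoter window in the arms lay under a peak, where 1596 of the 2261 coding genes had a window. Of 3304 RefSeq start-site windows in the arms, from 250 bases before to 50 after the start, 0 touched a peak in any of the 3 lists. A count of 0 in 3304 allows a share of up to 0.0908%. Over chromosomes 1 to 22 and X, 27, 13 and 49 of 34961 windows lay under a peak of guide 1, guide 2 and the control. These are 0.0772%, 0.0372% and 0.140%, so for both guides the count of 0 is near the background. In the gene-poor arms of chromosomes 4, 13 and 18 the counts were 0, 0 and 1 of 3096. Below are 4 promoters: those of ZFP90, ZNF286A and ZNF594, zinc finger genes with wide covered stretches in their bodies, and that of FAM230F, a long non-coding RNA gene, which is CpG-poor and had a peak close by. Each is printed 5' to 3' on the strand of its gene, from RefSeq on GRCh38.p14, with every CpG dinucleotide in capitals.
ZFP90, chr16:68539041-68539340, plus strand: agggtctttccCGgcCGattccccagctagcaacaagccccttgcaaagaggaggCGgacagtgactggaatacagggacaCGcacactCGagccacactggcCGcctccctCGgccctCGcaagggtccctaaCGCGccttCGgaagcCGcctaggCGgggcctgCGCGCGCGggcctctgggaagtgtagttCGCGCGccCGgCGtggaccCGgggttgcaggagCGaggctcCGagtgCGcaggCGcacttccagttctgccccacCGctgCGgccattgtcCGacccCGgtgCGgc
ZNF286A, chr17:15699502-15699801, plus strand: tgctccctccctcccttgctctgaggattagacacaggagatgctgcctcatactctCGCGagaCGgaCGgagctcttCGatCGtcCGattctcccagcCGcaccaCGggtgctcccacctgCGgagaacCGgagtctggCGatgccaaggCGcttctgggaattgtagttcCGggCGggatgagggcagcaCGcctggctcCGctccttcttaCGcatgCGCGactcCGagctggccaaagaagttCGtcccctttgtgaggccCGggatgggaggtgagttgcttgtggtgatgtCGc
ZNF594, chr17:5191819-5192118, minus strand: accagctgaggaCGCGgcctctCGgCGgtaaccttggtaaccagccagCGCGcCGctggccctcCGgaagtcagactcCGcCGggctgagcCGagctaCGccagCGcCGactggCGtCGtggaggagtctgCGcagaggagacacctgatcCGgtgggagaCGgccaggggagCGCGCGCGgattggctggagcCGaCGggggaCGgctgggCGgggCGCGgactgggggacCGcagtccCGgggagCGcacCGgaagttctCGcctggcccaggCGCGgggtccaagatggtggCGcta
FAM230F, chr22:18896715-18897014, minus strand: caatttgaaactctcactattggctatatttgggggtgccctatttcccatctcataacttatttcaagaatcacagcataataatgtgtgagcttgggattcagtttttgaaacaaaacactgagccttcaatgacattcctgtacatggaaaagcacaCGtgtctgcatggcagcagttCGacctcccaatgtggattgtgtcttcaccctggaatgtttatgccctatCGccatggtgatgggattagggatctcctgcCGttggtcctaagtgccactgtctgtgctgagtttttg
The ZFP90 window holds 32 CpG, the ZNF286A window 24 and the ZNF594 window 37, against 4 in the FAM230F window and a median of 19 over all 3304 windows. Across the 16 windows of control-marked zinc finger genes, the CpG count ran from 14 to 39 with a median of 26.5, and 34.7% of all windows in the arms had at least that many. The annotated ZFP90 gene begins at -5.81 kb from the start site of its window, and a guide 1 peak ran from -5.67 to -5.42 kb. The ZFP90 window lay 3177 bp from the nearest guide 1 peak, 14475 bp from the nearest guide 2 peak and 6034 bp from the nearest control peak. For ZNF286A the distances were 6568, 7332 and 5836 bp in the same order of lists, and for ZNF594 they were 2223, 4383 and 514 bp. The FAM230F window lay 148, 4101 and 198 bp away, and a second FAM230F window, not printed, 3031, 308 and 3059 bp away. Since all 3304 windows were free of peaks, this does not set zinc finger promoters or CpG-rich ones apart.

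In all 5 arms both PURPL lists held fewer and shorter stretches of H3K9me3 than the control list. The covered length was 159 kb with guide 1, 84.6 kb with guide 2 and 509 kb with the control guide, over 180.4 Mb of arm. The PURPL lists thus had 31.2% and 16.6% of the control length. Of the control bases themselves, 21.1% and 11.7% lay under guide 1 and guide 2 peaks. Peaks were narrower too, with a median of 570, 498 and 652 bp, and the widest measured 8369 bp, 6898 bp and 21281 bp. The median of the authors' score was 17, 18 and 18. When each list was cut to its 12190 highest-scoring peaks, the size of the guide 2 list, the arms held 132, 100 and 158 peaks. The PURPL lists then had 52.6% and 35.2% of the control length.

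The short arm of chromosome 17 stood apart from the other 4 arms. It held 55 peaks with guide 1, 24 with guide 2 and 75 with the control guide, over 64.2, 36.0 and 146 kb. The PURPL lists there had 44.0% and 24.7% of the control length. The control coverage of 17p, 7.13 kb per Mb, was the densest of the 5 arms, and that of 16p, 1.07 kb per Mb, the sparsest. On 16p, 12, 6 and 47 peaks covered 6.36, 3.31 and 32.1 kb. On 16q, 52, 28 and 152 peaks covered 41.9, 22 and 162 kb, and on 17q, 39, 23 and 131 peaks covered 25.5, 12.5 and 110 kb. The long arm of chromosome 22 had 33, 19 and 89 peaks over 21, 10.9 and 58.9 kb.

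**Figure D1:**
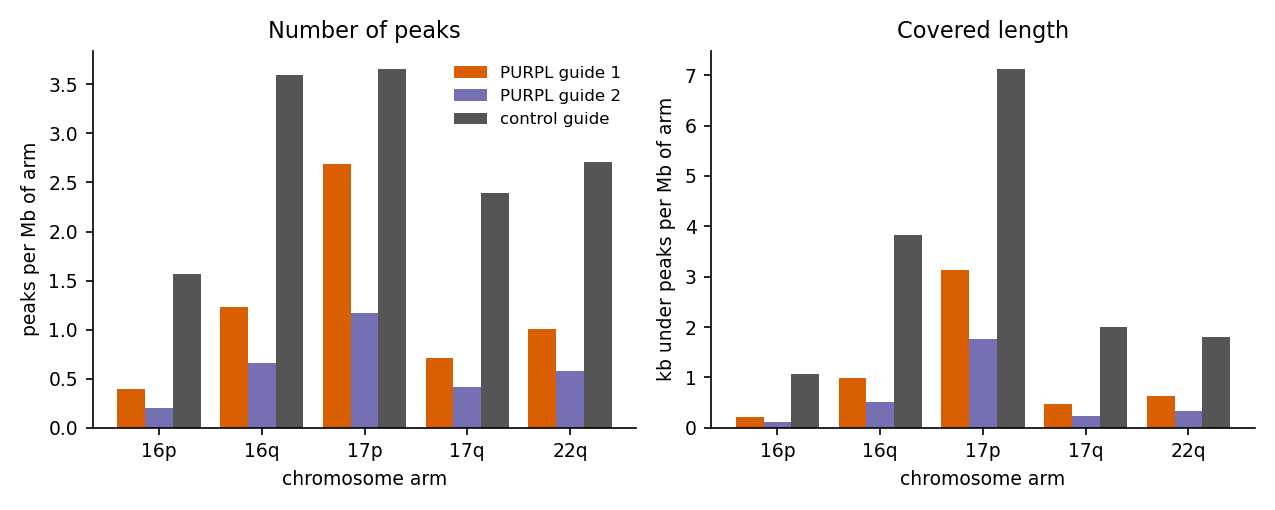
Peaks per Mb (left) and kb under peaks per Mb (right) in the 5 chromosome arms, with bars for PURPL guide 1, PURPL guide 2 and the control guide, 1 library each. In each arm the control bar is the highest and the guide 2 bar the lowest, and 17p has the highest control coverage, 7.13 kb per Mb.

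Most control peaks of the arms had no counterpart in either PURPL list. A counterpart was any overlap of at least 1 bp. In the guide 1 list 88 of 494 control peaks had one (17.8%, interval 14.7 to 21.4), and in the guide 2 list 50 had one (10.1%, 7.76 to 13.1). The share without a guide 1 counterpart was thus 82.2% in the arms, against 57.2% of control peaks over chromosomes 1 to 22 and X. Without a guide 2 counterpart it was 89.9%, against 63.8%. In the other direction, 79 of 191 guide 1 peaks (41.4%) lacked a control peak, against 20.8% over chromosomes 1 to 22 and X. Of the guide 2 peaks, 40 of 100 (40.0%) lacked one, against 17.1%. Between the PURPL lists, 37 guide 1 peaks (19.4%) overlapped a guide 2 peak, against 55% over chromosomes 1 to 22 and X, and 38 guide 2 peaks (38.0%) overlapped a guide 1 peak, against 68.6%.

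The overlap in the arms was close to that of other chromosomes outside their gene-free stretches. On the other chromosomes of 1 to 22 and X, outside gaps of at least 1 Mb between neighbouring genes, 17.9% of control peaks had a guide 1 counterpart and 8.91% a guide 2 counterpart, close to the 17.8% and 10.1% above. In the windows left out around the centromeres and at the ends of chromosomes 16, 17 and 22, the shares were 58.0% and 50.6%. The gene-poor arms of chromosomes 4, 13 and 18 gave 11.7% (9.95 to 13.8) and 6.04% (4.78 to 7.62), and both intervals lie below those of the gene-rich arms. The gene-rich arms have 12.5 coding genes per Mb against 3.67 in the gene-poor arms. Their peaks numbered 1.06, 0.554 and 2.74 per Mb with guide 1, guide 2 and the control guide, against 0.917, 0.455 and 3.15 per Mb.

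Part of that contrast lay in 17p. There 34.7% and 21.3% of control peaks had a guide 1 and a guide 2 counterpart, and with peaks at zinc finger genes left out 31.0% and 15.5% had one. In the arms other than 17p the shares were 14.8% and 8.11%, whose intervals, 11.7 to 18.5 and 5.86 to 11.1, overlap those of the gene-poor arms.

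Wide control peaks kept a counterpart far more often than narrow ones. Under 500 bp, 14 and 9 of 182 control peaks had a guide 1 and a guide 2 counterpart. From 500 to 1000 bp the counts were 20 and 9 of 165, from 1000 to 2000 bp 27 and 13 of 110, and from 2000 to 5000 bp 17 and 9 of 27. At 5000 bp or more, 10 and 10 of 10 had one. A wide peak offers more bases to overlap, and no correction was made for this. By the authors' score, 8 and 4 of the 134 control peaks in the lowest of 4 score classes had a counterpart, against 40 and 27 of 131 in the highest class.

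**Figure D2:**
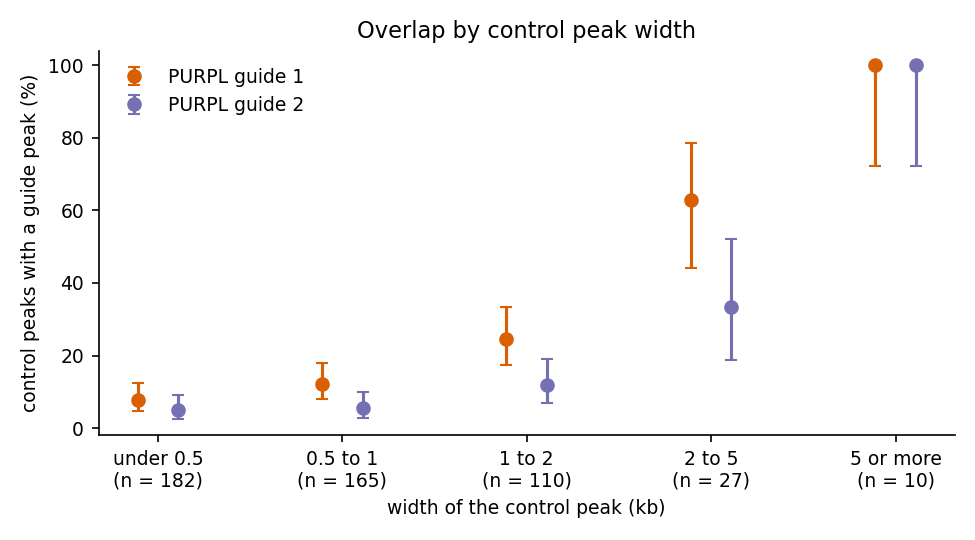
Share of control peaks in the arms (percent, y axis) that overlapped a peak of PURPL guide 1 or PURPL guide 2, by width of the control peak (kb, x axis). Points are shares and bars are 95% Wilson intervals for counting error, and the shares reach 100% for the 10 control peaks of 5 kb or more.

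Zinc finger gene bodies held a share of the mark far above their share of the arms. They make up 0.825% of the length of the arms, and held 37 of 191 guide 1 peaks, 19 of 100 guide 2 peaks and 35 of 494 control peaks. At full width, with bases outside the gene included, these peaks measured 57.1, 29.9 and 128 kb. That is 35.9%, 35.3% and 25.1% of the covered length of each list. The bases inside the bodies came to 56.8, 29.0 and 119 kb. At zinc finger genes guide 1 and guide 2 had 44.6% and 23.4% of the control length. Elsewhere in the arms they had 26.7% and 14.4%. Of the control bases themselves, 40.6% and 21.6% lay under guide peaks at zinc finger genes, and 14.5% and 8.34% elsewhere. In bodies of non-coding genes alone the lists had 45.4% and 24.4% of the control length, near the zinc finger values. That class holds guide 1 and guide 2 peaks of 5052 and 4080 bp at ZNF286B, while the control domain there was classed as coding. With guide 1 the number of peaks at zinc finger genes did not drop below the control number while the length did. Coding gene bodies of every kind, 54.3% of the length of the arms, held 59.2%, 58.0% and 48.4% of the peaks. Space between annotated genes, 33.6% of the length, held 29.8%, 33.0% and 40.9%.

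Control peaks at zinc finger genes had a guide 1 counterpart in 15 of 35 cases and a guide 2 counterpart in 11 of 35, against 73 and 39 of 459 elsewhere in the arms. Width moves with this contrast. Among control peaks of at least 2000 bp, 11 and 9 of 15 at zinc finger genes had a counterpart, against 16 and 10 of 22 elsewhere. Below 2000 bp the counts were 4 and 2 of 20, against 57 and 29 of 437. Among wide peaks the guide 1 share was 73.3% at zinc finger genes and 72.7% elsewhere, and among narrow peaks it was 20.0% and 13%, with intervals that overlap in both classes.

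**Figure D3:**
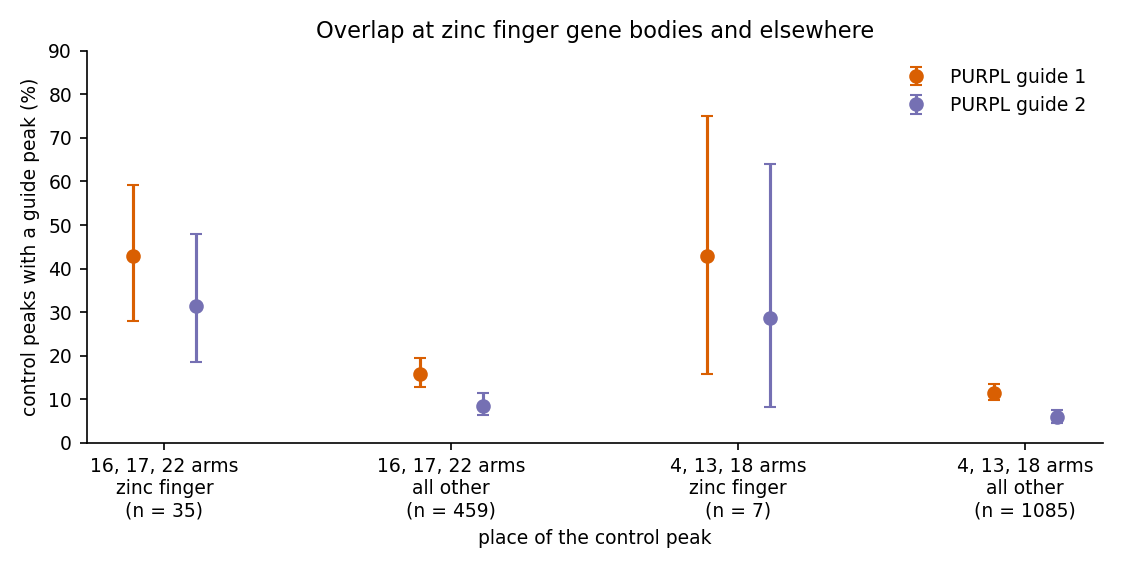
Share of control peaks (percent, y axis) that overlapped a PURPL guide 1 or PURPL guide 2 peak, for zinc finger gene bodies and for all other places, in the arms of chromosomes 16, 17 and 22 and in those of chromosomes 4, 13 and 18. Bars are 95% Wilson intervals for counting error, and the zinc finger shares (42.9% and 31.4% in the gene-rich arms) exceed those elsewhere (15.9% and 8.5%), with 7 zinc finger peaks in the gene-poor arms.

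The 10 control domains of at least 5000 bp spanned 109.7 kb, 21.6% of the control length in the arms, and 8 of them lay at zinc finger genes. Each of the 10 had peaks in both PURPL lists, which covered 51.2% of their length with guide 1 and 30.4% with guide 2. These shares were 50.3% and 27.9% for the 8 zinc finger domains, and 55.9% and 43.1% for the other 2. The domains were chosen by their width in the control, and only bases inside them were counted. A PURPL list could thus not cover more than the control there, and the choice itself favours shorter PURPL-list peaks. Where the control list had 10 unbroken peaks, 34 shorter peaks overlapped them with guide 1 and 21 with guide 2. Per domain the covered share ran from 36.4% to 75.9% with guide 1 and from 5.90% to 85.8% with guide 2. The longest domain, chr16:68550296-68571576 in ZFP90, a KRAB zinc finger gene, measured 21281 bp in the control, of which 11242 bp lay under guide 1 peaks and 5683 bp under guide 2 peaks. The domain at ZNF286A, chr17:15705638-15726851, measured 21214 bp, with 11889 and 7005 bp under guide 1 and guide 2 peaks. In both, guide 1 covered about the same share, 52.8% and 56.0%, and guide 2 less, 26.7% and 33.0%.

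The third domain, chr17:18656381-18668482, covers ZNF286B and reaches FOXO3B, and measured 12102 bp, with 6440 and 6700 bp left. ZNF286B is a copy of ZNF286A and FOXO3B a copy of FOXO3, so reads of these loci may fit more than 1 place. ZNF286B is not annotated as coding and is not counted among the zinc finger genes here. ZNF594, a zinc finger gene on 17p, kept the most. Its domain chr17:5179437-5187210 measured 7774 bp, with 5897 bp under guide 1 peaks and 6673 bp under guide 2 peaks, 1 of the 2 domains where guide 2 covered more than guide 1. At ZFP1, a KRAB zinc finger gene on 16q, 3491 bp under guide 1 and 548 bp under guide 2 stood against a control domain of 9290 bp, the lowest guide 2 share of the 10.

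On 17p, ZNF624 had 4035 and 1082 bp left of 9505 bp, ZNF287 had 3906 and 1380 bp of 9457 bp, and ZFP3 had 2428 and 1033 bp of 6676 bp. On 16q, ZNF23 had 3222 and 2217 bp of 6498 bp. The 10th domain lay in ZZEF1, a gene whose product has ZZ-type zinc fingers and is no member of the C2H2 family, with 3635 and 1068 bp of 5912 bp.

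Measured along the gene from the RefSeq start site, the 8 zinc finger domains began 4.66 to 25.9 kb after it (median 10.2 kb). The annotated ZFP1 and ZFP90 genes begin at -29.5 and -5.81 kb from the site used. Their domains thus lie further from the gene start than from that site. The domains of ZFP90, ZNF624, ZNF287 and ZFP3 stopped less than 5 kb short of the gene end, and those of ZNF286A, ZFP1 and ZNF23 passed it. The ZNF594 domain lay in the middle of its gene, from 4.66 to 12.4 kb of 17.8 kb. At ZFP90 the control domain ran from 11.0 to 32.3 kb, the longest guide 1 peak from 21.3 to 27 kb and the longest guide 2 peak from 22.9 to 26.1 kb. At ZNF286A the longest peaks of guide 1 and guide 2 ran from 12.1 to 20.4 kb and from 16.6 to 21.9 kb, inside a control domain from 5.89 to 27.1 kb. In both genes the longest peaks of the PURPL lists lay inside the control domain and overlapped each other.

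**Figure D4:**
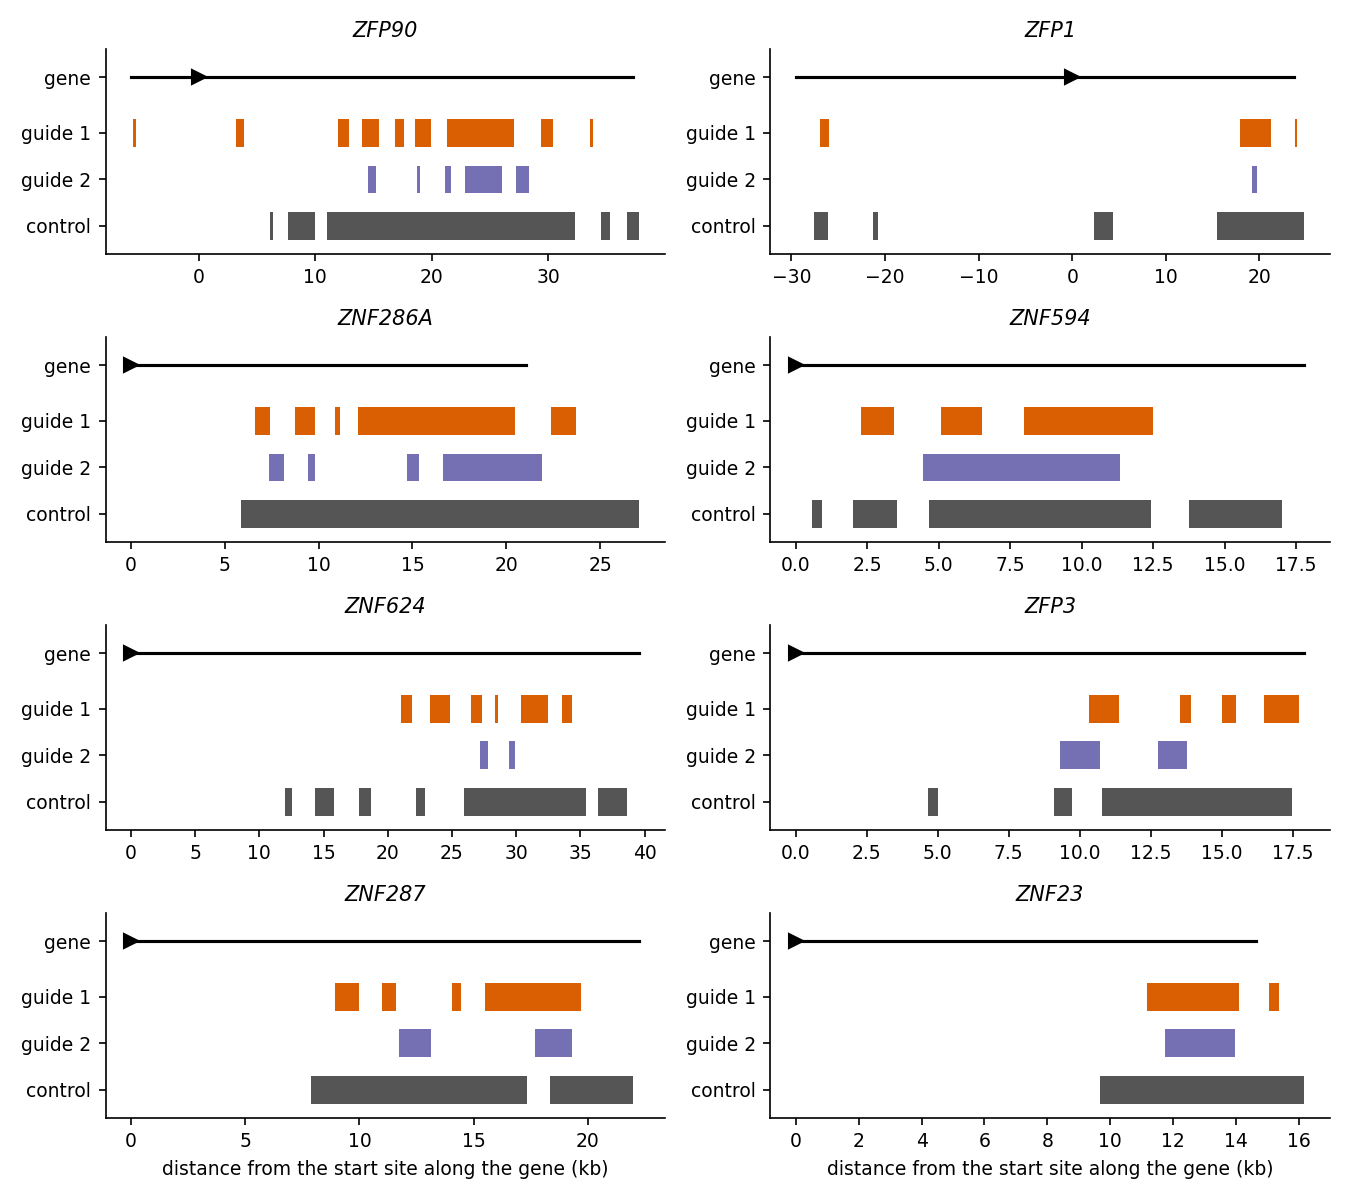
Peaks along 8 zinc finger genes by distance from the start site in kb (x axis, with the gene running left to right from the arrowhead), in rows for PURPL guide 1, PURPL guide 2 and the control guide. Boxes are peaks, and in each gene the widest control box is matched by shorter boxes in the PURPL rows. At ZFP90, 11242 and 5683 bp of 21281 bp lay under PURPL-list peaks. The genes were chosen by the width of their control peak.

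Among the 39 zinc finger coding genes of the arms, 12 were marked with guide 1, 9 with guide 2 and 13 with the control guide, marked meaning at least 1 base of the body under a peak. They had 56.8, 29.0 and 119 kb under peaks. ZFP90 had 12400 bp with guide 1, 5683 bp with guide 2 and 25091 bp with the control guide. ZNF624 had 6369, 1082 and 15490 bp, and ZNF286A 10549, 6140 and 15150 bp. ZNF287 had 6246, 3010 and 13118 bp, ZNF594 7132, 6898 and 12919 bp, and ZFP1 4236, 548 and 12321 bp. These 6 had the longest control coverage of all coding genes in the arms. ZNF469, a gene of brittle cornea syndrome and no KRAB gene, had 715, 982 and 5896 bp. Of the others marked in the control, ZFP3 and ZNF23 were shorter in both PURPL lists, ZNF778 and ZNF232 were shorter with guide 1 and at 0 with guide 2, and ZNF423 was at 0 in both. ZKSCAN2 went the other way with guide 1, at 963 bp against 481 bp in the control, and had 0 bp with guide 2.

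The 12 zinc finger genes marked with guide 1 and the 9 marked with guide 2 were all control-marked too. Most marked coding genes of any kind were. Over chromosomes 1 to 22 and X, 17.9% and 18.9% of those marked with guide 1 and guide 2 were at 0 in the control. Of the 566 zinc finger genes of chromosomes 1 to 22 and X, 292, 225 and 341 were marked. The PURPL lists had 48.6% and 19.1% of the control length in them, near the 47.9% and 24.4% of the 39 in the arms. Coding genes of the arms that are not zinc finger genes had 29.1% and 15.8% of their control length, and 64, 30 and 141 of 2222 were marked.

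Of all 2261 coding genes in the arms, 76 were marked with guide 1 (3.36%, against 6.55% of coding genes on chromosomes 1 to 22 and X), 39 with guide 2 (1.72%, against 3.73%) and 154 with the control guide (6.81%, against 13.1%). Of the 154, 95 (61.7%) were at 0 with guide 1, against 58.9%, and 123 (79.9%) were at 0 with guide 2, against 76.9%. Coverage was shorter with guide 1 in 146 of the 154 (94.8%), against 94.2%, and shorter with guide 2 in 150 (97.4%), against 97.7%. It was longer with guide 1 in 8 (5.19%), against 5.63%, and longer with guide 2 in 4 (2.60%), against 1.99%. A smaller share of the genes carried the mark than over chromosomes 1 to 22 and X, and those marked were at 0 in the PURPL lists about as often. Control-marked genes were long, with a median of 107.5 kb against 18.2 kb for all 2261. Overlapping genes share bases, so a base can count for more than 1 gene.

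Long genes carried scattered short peaks. Of the 45 coding genes of at least 300 kb, 13, 8 and 23 were marked with guide 1, guide 2 and the control guide. These are 28.9%, 17.8% and 51.1%, against 3.36%, 1.72% and 6.81% of all coding genes in the arms, and a longer gene offers more bases to a peak. They had 11.6, 10.8 and 44.3 kb under peaks. CEP112, which encodes a centrosomal protein, had 1701 bp with guide 1, 0 bp with guide 2 and 7485 bp with the control guide. BCAS3, whose product acts in cell migration, had 0, 1102 and 4262 bp. SYN3, which encodes the synaptic vesicle protein synapsin III, had 2648, 2493 and 3102 bp, and SPECC1, which encodes a cytospin, had 1510, 1177 and 2214 bp. In SYN3 1140 bp and in SPECC1 1177 bp were common to all 3 lists, and in CEP112 and BCAS3 0 bp. CDH13, the gene of the GPI-anchored T-cadherin, had 678 bp with guide 1, 3011 bp with guide 2 and 2586 bp with the control guide, shorter than the control with guide 1 and longer with guide 2. In CDH13 too, 0 bp were common to all 3 lists. With each list cut to its 12190 highest-scoring peaks, long genes had 68.5% of the control length with guide 1 and 111.9% with guide 2, and SYN3 and SPECC1 were longer than the control with both guides, CEP112 and CDH13 with guide 1 and BCAS3 with guide 2.

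Several gene families that cluster on these chromosomes bore no peak. The marked share of all coding genes in the arms was itself low, at 3.36%, 1.72% and 6.81%, so a count of 0 in a small family is near the background. All 62 keratin and keratin-associated protein genes, 10 HOXB genes, 20 chemokine genes and 13 olfactory receptor genes were at 0 in all 3 lists. So were 11 metallothionein genes, 10 ribosomal protein genes and 6 skeletal myosin genes. Of the 51 genes of the NPIP, TBC1D3 and like duplicated families, 0, 1 and 0 were marked. The 1 was NPIPB11, with 466 bp with guide 2, and its near-identical relatives make the place of its reads uncertain. Of the 13 APOBEC3 and APOL genes, which act in innate defence, 1, 0 and 0 were marked. That gene was APOL6, with 266 bp with guide 1.

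Lists of genes by role held 1 or 2 control-marked members each. The control-marked share was 5.88% of the neuronal, 25% of the cadherin, 8% of the immune, 6.67% of the fibroblast and matrix and 8.70% of the chromatin list, against 6.81% of all coding genes in the arms. Among 34 neuronal genes 1, 1 and 2 were marked, among 8 cadherin genes 1, 1 and 2, and the second control-marked member of both lists was CDH8, a neuronal cadherin, with 1115 bp in the control and 0 bp with either guide. Of 25 immune genes 0, 0 and 2 were marked. These were TNFRSF13B, the B-cell receptor TACI, with 1537 bp in the control, and IL21R, the interleukin-21 receptor, with 849 bp in the control. Of 15 fibroblast and matrix genes, 0, 1 and 1 were marked. FBLN1, the gene of the matrix protein fibulin-1, had 328 bp in the control alone, and TIMP3, an inhibitor of matrix metalloproteinases, had 219 bp with guide 2 alone. TIMP3 lies within SYN3 of the neuronal list, so its 219 bp are counted in SYN3 as well. Of 23 chromatin regulator genes, 2, 0 and 2 were marked. ATF7IP2, whose relative ATF7IP stabilises SETDB1, had 654 bp with guide 1, 0 bp with guide 2 and 2115 bp with the control guide. NCOR1, a corepressor gene, had 1214 bp in the control alone, and HIRA, a histone H3.3 chaperone gene, had 222 bp with guide 1 alone.

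Coding genes with control coverage and 0 bp in both PURPL lists were led by TANC2, a synaptic scaffold gene, with 3746 bp in the control. WBP2NL, expressed in sperm, followed with 2340 bp, CLEC16A, an autophagy regulator, with 2179 bp, and ADCY9, an adenylyl cyclase, with 2128 bp. TBC1D22A had 1887 bp, and PLCG2, the phospholipase of B-cell receptor signalling, 1863 bp. Each of these 6 lies outside 17p. Much of their control coverage was lower-scoring. The genes were chosen at 0 bp in both PURPL lists, so guide minus control must be the same with both guides. When each list was cut to the same number of highest-scoring peaks, it was -1588 bp for TANC2 and -818 bp for WBP2NL. For ADCY9 it was -256 bp and for TBC1D22A -274 bp. For CLEC16A and PLCG2 it was 0 bp, so none of their control coverage was left. Peaks at or above the pooled median score of all lists gave the same values. No share of genes at 0 in both lists is given here.

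Some coding genes carried a PURPL-list peak and no control peak, 17 with guide 1 and 8 with guide 2. These are 22.4% and 20.5% of the genes marked with each guide, against 17.9% and 18.9% over chromosomes 1 to 22 and X. With guide 1 the longest was PARVB, a focal adhesion gene, at 850 bp, which also had 229 bp with guide 2. WDR59, a part of the GATOR2 complex, had 797 bp, TMC7 757 bp, WWOX, which spans a common fragile site, 690 bp, and SLC39A11, a zinc transporter gene, 677 bp. Those 4 were at 0 with guide 2 and with the control guide. With guide 2 the longest was SSH2, a cofilin phosphatase gene, at 899 bp, followed by ATP2C2, a Golgi calcium pump gene, at 793 bp, and by NPIPB11, given above. DRICH1 had 374 bp, MRTFA, a coactivator of serum response factor, 272 bp, and OSBP2, a sterol-binding protein gene, 253 bp. All but MRTFA, which had 245 bp with guide 1, were at 0 with guide 1. Each of these stretches was under 1 kb.

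Coverage common to all 3 lists was longest in ZNF286A, at 4825 bp, then in ZNF594, at 4796 bp, and ZFP90, at 4423 bp. ZNF23 followed with 2217 bp, ABR with 1192 bp, and SPECC1 with 1177 bp. At ABR the mark differed little in length, at 1395 bp with guide 1, 1192 bp with guide 2 and 1454 bp with the control guide. This rested on a lower-scoring guide 1 stretch. With peaks at or above the pooled median score of 22, guide 1 minus control was -1454 bp and guide 2 minus control -262 bp.

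The 3 highest-scoring peaks of each list lay outside zinc finger genes. The peak with the highest score in the guide 1 and control lists was the same 22q site, chr22:18730477-18730714 with a score of 386 with guide 1 and chr22:18730474-18730716 with a score of 379 in the control, 94.8 kb from the nearest coding gene, FAM246B. It had no counterpart with guide 2. The site lies in the low-copy repeats of 22q11, where reads may fit more than 1 copy. In both PURPL lists but not in the control list a peak stood 50.06 and 50.04 kb from IRF8, the gene of an immune transcription factor, at chr16:85972668-85972888 with a score of 79 with guide 1 and at chr16:85972649-85972896 with a score of 130 with guide 2. The second-ranked guide 2 peak, chr22:18892377-18892613 in FAM230F, had a score of 55 and no guide 1 or control counterpart. FAM230H on the same arm has a like promoter sequence, so reads of this peak may also fit more than 1 place.

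Other high-scoring peaks were wider. The guide 1 peak at chr17:59842178-59844107, with a score of 46 and 1930 bp, overlapped 78 bp of VMP1, an autophagy gene, and had no guide 2 or control counterpart. It began 840 bp from the hairpin of MIR21, a microRNA whose place was looked up after the peak was seen. None of the 196 microRNA hairpins in the arms lay under a peak in any list. In the control, chr22:37432752-37434886, 5.27 kb from ELFN2, had a score of 69 and kept 1610 bp under guide 1 and 1521 bp under guide 2 peaks. At chr17:1738922-1740742, 0.336 kb from WDR81, the score was 52 and 1629 and 1424 bp remained. The guide 2 peak chr17:1309159-1311375, with a score of 41, lay wholly under a control peak.

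By 1 Mb window, 95, 58 and 149 of 184 windows held a peak with guide 1, guide 2 and the control guide. The 6 windows with most control coverage, which begin at 5, 15, 16 and 18 Mb on chromosome 17 and at 68 and 75 Mb on chromosome 16, held 66.3, 34.9 and 154 kb. Those are 41.7%, 41.3% and 30.2% of the covered length of each list. In these windows the PURPL lists had 43.2% and 22.7% of the control length, and in the rest of the arms 26.1% and 13.99%. Of the 149 windows with a control peak, 141 had less coverage with guide 1 and 145 with guide 2, and 8 and 4 had more. Windows without a control peak could only show more and were left out of these counts. One such window, from 40 Mb on chromosome 22, had 0.245 kb with guide 1 and 0.272 kb with guide 2. No share over windows of chromosomes 1 to 22 and X stands beside these counts. On chromosome 22 the leading control window, from 44 Mb, had 1.19, 1.47 and 8.31 kb, and the window from 32 Mb, which holds SYN3, had 2.65, 2.49 and 3.10 kb.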

How the data were processed

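Peak lists of the 3 H3K9me3 libraries were analysed, assigned to cell lines by GEO's labels, because guide names written inside the lists differ from those of the labels. Input libraries had no list of their own here. The deposited score is a whole number per peak given by the authors on a scale not given in the sources used here, at least 10 in each list, and it served to rank or filter peaks. MACS2 2.2.9.1, Bowtie2 2.4.2, deepTools 3.5.1 and GATK appear in the submitters' processing notes, with builds hg38 and GRCh38.p13. Read depth and peak-calling settings were not given in the sources used here, so no value is corrected for depth.

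Peaks overlapped at 1 bp or more, and any peak of the other list could be the counterpart. Gene bodies and promoter windows came from RefSeq tables for GRCh38.p14. No genome sequence was used. Coding genes belonged to the arms by their midpoint. A percent of the control length is the length under a PURPL list as a percent of that under the control list. PURPL-list bases outside control peaks count towards it. In the control domains of at least 5000 bp only bases inside the domain were counted. Of the 2261 coding genes, 1596 had a promoter window.

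The members, the 16 gene lists and the comparisons were chosen with earlier results of these data known. Named coding genes were the 6 with the longest control coverage, the 6 longest in the control with 0 bp in both PURPL lists, and the 6 longest with guide 1 and with guide 2 at 0 in the control. The rule also took the 6 with the most bases covered in all 3 lists at once, the 3 leading members of each gene list by control coverage, and the genes at the 3 highest-scoring and 3 widest peaks of each list. A gene that the rule took is not reported here. HIRA, TIMP3, APOL6 and the remaining zinc finger genes were named to account for small counts. The work was done in Python 3.11.15 with pandas 2.3.3, numpy 2.4.6, matplotlib 3.10.9 and scipy 1.17.1. The overlap and coverage steps were tested on simulated data. Alternatives changed the score limit, list size, overlap rule, arm limits, chromosomes and gene flanks.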

Additional observations from a re-analysis of the deposited data

Results flagged for a closer look

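CDH13, the T-cadherin gene on 16q, was the 1 gene named by the rule and marked in all 3 lists whose summed length differed from the control in opposite directions with the 2 PURPL guides. It had 678 bp under peaks with guide 1, 3011 bp with guide 2 and 2586 bp with the control guide. Of these, 0 bp were common to all 3 lists, so the lengths do not describe 1 shared stretch. The guide 1 minus control difference was -1908 bp and the guide 2 minus control difference was 425 bp. The difference between the guides was not tested, since each cell line had 1 library.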

How the results depend on the processing

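With 1 library per cell line and an unknown read depth, the lists cannot separate the guides from library yield. No paired analysis was possible because each group has 1 library. The number of members changed by less than 1.5 times, and the covered length as a percent of the control kept its direction, when chromosome 22 or 2 Mb at the chromosome ends were left out, the windows were widened by 1 Mb or peaks within 5000 bp were merged. Shares of overlap were recomputed without chromosome 22 and with the widened windows, and stayed within the 95% intervals of the shares reported, and gene lists for none of the 4.

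With the 12190 highest-scoring peaks of each list, the control members fell to 158, and guide 1 and guide 2 had 52.6% and 35.2% of the control length. The share of control peaks with a counterpart was 24.7% and 17.7%, and 59.1% and 61.0% of guide 1 and guide 2 peaks lacked a control peak. The control then marked 72 coding genes, 13 long genes, 0 cadherin genes, 0 fibroblast and matrix genes and 1 gene each of the neuronal, immune and chromatin lists, and guide 1 marked 0 APOBEC3 and APOL genes. Long genes had 68.5% of the control length with guide 1 and 111.9% of it with guide 2, a reversal. Guide minus control turned positive for CEP112 (130 bp) and CDH13 (349 bp) with guide 1, for BCAS3 (802 bp) with guide 2, for SYN3 (512 and 720 bp) and SPECC1 (1510 and 1177 bp) with guide 1 and guide 2. The cause was not tested.

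With peaks at or above the pooled median score of 22, members numbered 46, 28 and 131 with guide 1, guide 2 and the control guide, and 19, 16 and 59 coding genes were marked. A guide 1 counterpart was found for 12.2% of control peaks and for 25% of guide 2 peaks, and 54.3% and 57.1% of guide 1 and guide 2 peaks lacked a control peak. Zinc finger genes marked were 7 and 5 with guide 1 and guide 2, and guide 2 had 13.4% of the control length there. Long genes marked were 2, 3 and 10, with 8.48% and 40.6% of the control length under guide 1 and guide 2 peaks. Neuronal genes marked were 0, 0 and 1, the control marked 1 immune gene and 0 cadherin genes, and guide 1 marked 0 APOBEC3 and APOL genes. The chromatin list had 0 with guide 1 and the control guide, the fibroblast and matrix list 0 with guide 2 and the control guide, and the duplicated families 0 with guide 2. CEP112 (367 bp) and CDH13 (349 bp) turned positive with guide 1.

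When 50% of a peak had to be covered, control peaks had a counterpart in 7.49% and 4.86% of cases, guide 1 peaks had a guide 2 counterpart in 11.0% and guide 2 peaks a guide 1 counterpart in 26.0%. When any peak within 5000 bp counted, the same 4 shares were 26.5%, 15.99%, 34.6% and 50%, and 27.2% and 26.0% of guide 1 and guide 2 peaks lacked a control peak. With 5000 bp added to gene bodies, keratin and keratin-associated protein genes marked were 2 with guide 2 and 1 in the control. Olfactory receptor genes marked were then 1 in the control and metallothionein genes 1 with guide 1. Without chromosome 16 the members were 127, 66 and 295, and without chromosome 17 they were 97, 53 and 288, where 28.3% of guide 2 peaks had a guide 1 counterpart.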

Other observations

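Of 154 control-marked coding genes in the arms, 8 had longer coverage with guide 1 than with the control guide and 4 with guide 2, near the 5.63% and 1.99% over chromosomes 1 to 22 and X. Those named here were chosen after their values were seen. TRIM25, the gene of a ubiquitin ligase of antiviral sensing, had 0 bp with guide 1, 1049 bp with guide 2 and 347 bp with the control guide. SMG1, a nonsense-mediated decay kinase gene with many copies of its sequence on chromosome 16, had 0, 1461 and 1173 bp. NTN1, the netrin-1 gene, had 798, 0 and 710 bp, and SEPTIN9, a septin cytoskeleton gene, had 648, 0 and 532 bp. The other guide had 0 bp in each of these genes but CDH13, given above, and TTC28. TTC28 had 1242, 946 and 1222 bp.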
